A study of Homo sapiens and Mus musculus with 13 samples.

Results

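A set of 41 genes that act in mitosis, at the spindle and in condensin was followed in a mouse haematopoietic progenitor line with and without a knock-in of NPM1c, the cytoplasmic form of nucleophosmin found in acute myeloid leukaemia. The members were taken by symbol from a list of mitotic regulators, kinetochore and passenger proteins, spindle motors, cytokinesis factors, condensin subunits and the proliferation marker Mki67. Each of the 41 symbols matched a single Ensembl gene among the 37991 in the mouse files, and all 41 were abundant enough to be tested among 13132 genes. HOXB8 immortalizes the line behind all 5 libraries, which was kept in RPMI-1640 with beta-estradiol and medium conditioned by stem cell factor-secreting CHO cells. The 3 NPM1c knock-in libraries, called clones 12, 18 and 4 after their titles, are single-cell clones made by CRISPR/Cas9 knock-in of NPM1ca-GFP. The 2 parental libraries are labelled wild-type, and no label says that they were cloned or grown as separate cultures. The p-values therefore measure the spread between these libraries, which may be technical in the parental pair. The knock-in and the derivation from a single cell cannot be told apart in this comparison, and strain and age are not stated in the labels. The series also holds 8 human leukaemia libraries, which were not analysed here.

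Entry into mitosis is driven by CDK1, which cyclin A2 and the B-type cyclins activate and which CDC25 phosphatases release from inhibition. Condensin then compacts the chromosomes, kinetochores attach them to spindle microtubules, and the spindle checkpoint holds the anaphase-promoting complex (APC/C) in check until every chromosome is attached. APC/C with CDC20 then marks cyclin B and securin for destruction, after which the central spindle directs cytokinesis. Most of these genes are transcribed in G2 and M phase, so their RNA in a culture depends on how many cells are in those phases as well as on the amount of RNA per cell. In bulk libraries such as these, fewer cells of a kind and less RNA per cell cannot be told apart.

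Values are read counts per gene that the authors divided by a size factor per library, called normalised read counts here. Clones 12, 18 and 4 held 12235174, 9427149 and 7358340 reads, against 9728260 and 99557475 in parental replicates 1 and 2. The least covered member of each library still had 31 to 70 reads in the clones and 63 and 657 in the parental libraries. Npm1, the targeted gene, was at 15141, 14144 and 14305 in the clones, against 25695 and 25714 in the parental libraries (log2 fold change -0.82, SE 0.0673, adjusted p = 0.000533, limma), and its single value per gene does not separate the mutant from the normal transcript. All 8 progenitor markers found were expressed in every library. Kit, the stem cell factor receptor, was at 5887 to 8571 in the clones, against 5736 and 5262.5 in parental replicates 1 and 2, and did not pass. Of the 8, Ptprc (CD45) and Myb rose, and Flt3, a receptor of early progenitors, fell to 3755, 4185 and 3496 in clones 12, 18 and 4, against 5446 and 5521 (log2 -0.53, adjusted p = 0.0117, limma). The other 5 did not pass. Without clone 12, Ptprc, Myb and Flt3 did not pass either (adjusted p = 0.0854, 0.13 and 0.0546, limma). Myb also missed the threshold without clone 4 (adjusted p = 0.0546, limma). Of the 7 T and NK cell markers, 3 were at 0 in every library, and so were 4 of 8 erythroid markers, among them the 2 alpha-globin genes. The erythroid markers summed to 39.63 to 68.94 in the clones, against 3.107 and 8.244, and the only one tested, the beta-globin gene Hbb-b1, rose (adjusted p = 0.00221, limma). The files number the clones 4, 12 and 18 where the titles say 12, 18 and 4, so single clones are named by title only, and the group of each is not in doubt.

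Most of the mitotic genes were lower in the knock-in clones. By limma on log2(value + 1), 24 of the 41 members fell (adjusted p under 0.05 over all genes tested), where 8.49% of all genes tested fell and 7.51% rose. None of the 41 rose, and none had an unadjusted p under 0.05 in that direction, where 1985 of the 13132 genes tested did. edgeR on the recovered reads called 24 members lower, where 8.96% of all genes fell and 7.84% rose, and DESeq2 called 28, where 10.5% fell and 9.88% rose. Neither called a member higher. limma without trend and robust moderation called 11 lower and 0 higher, where 4.72% of all genes fell and 4.96% rose. The median log2 fold change was -0.63, beside 0.01 for all genes tested, and the members ranged from -1.63 for Smc4 to 0.18 for Ccnb2. In 36 of the 41 the 3 clones lay below both parental libraries, which held for 25.8% of all genes tested. The other 5, Ccnb2, Plk1, Ube2c, Kif11 and Mki67, overlapped. The summed normalised read count of all 41 was 56812 ± 7090 (SD, n = 3) in the clones and 95559 ± 2850 (SD, n = 2) in the parental libraries, or 61.4%, 65.7% and 51.3% of the parental mean in clones 12, 18 and 4.

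The number of members called depended on which libraries entered the fit. Without clone 12, 16 members fell (4.2% of all genes fell and 3.53% rose), and Cdca3, Ttk, Cenpe, Aurka, Kif4, Kif23, Ncapd2 and Top2a lost the call. Without clone 18, 25 fell (7.02% and 5.61% of all genes), with Ttk, Cenpe and Kif23 lost. Without clone 4, 23 fell (8.53% and 7.59% of all genes), with Cdca3 and Kif4 lost. Without parental replicate 1, 13 fell and Ccnb2 rose (4.26% and 9.26% of all genes), and Cdca3, Bub1, Ttk, Cenpe, Cenpf, Aurka, Kif2c, Kif4, Kif23, Ncapd2 and Top2a lost the call. Without parental replicate 2, 16 fell (3.02% and 4.45% of all genes), with Ccnb1, Cdca3, Ttk, Cenpf, Aurka, Tpx2, Kif2c, Prc1, Kif20a and Kif23 lost. The 9 members called lower in every fit run were Cdk1, Ccna2, Nuf2, Hmmr, Ect2, Smc2, Smc4, Ncapg and Ncaph.

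**Figure D1:**
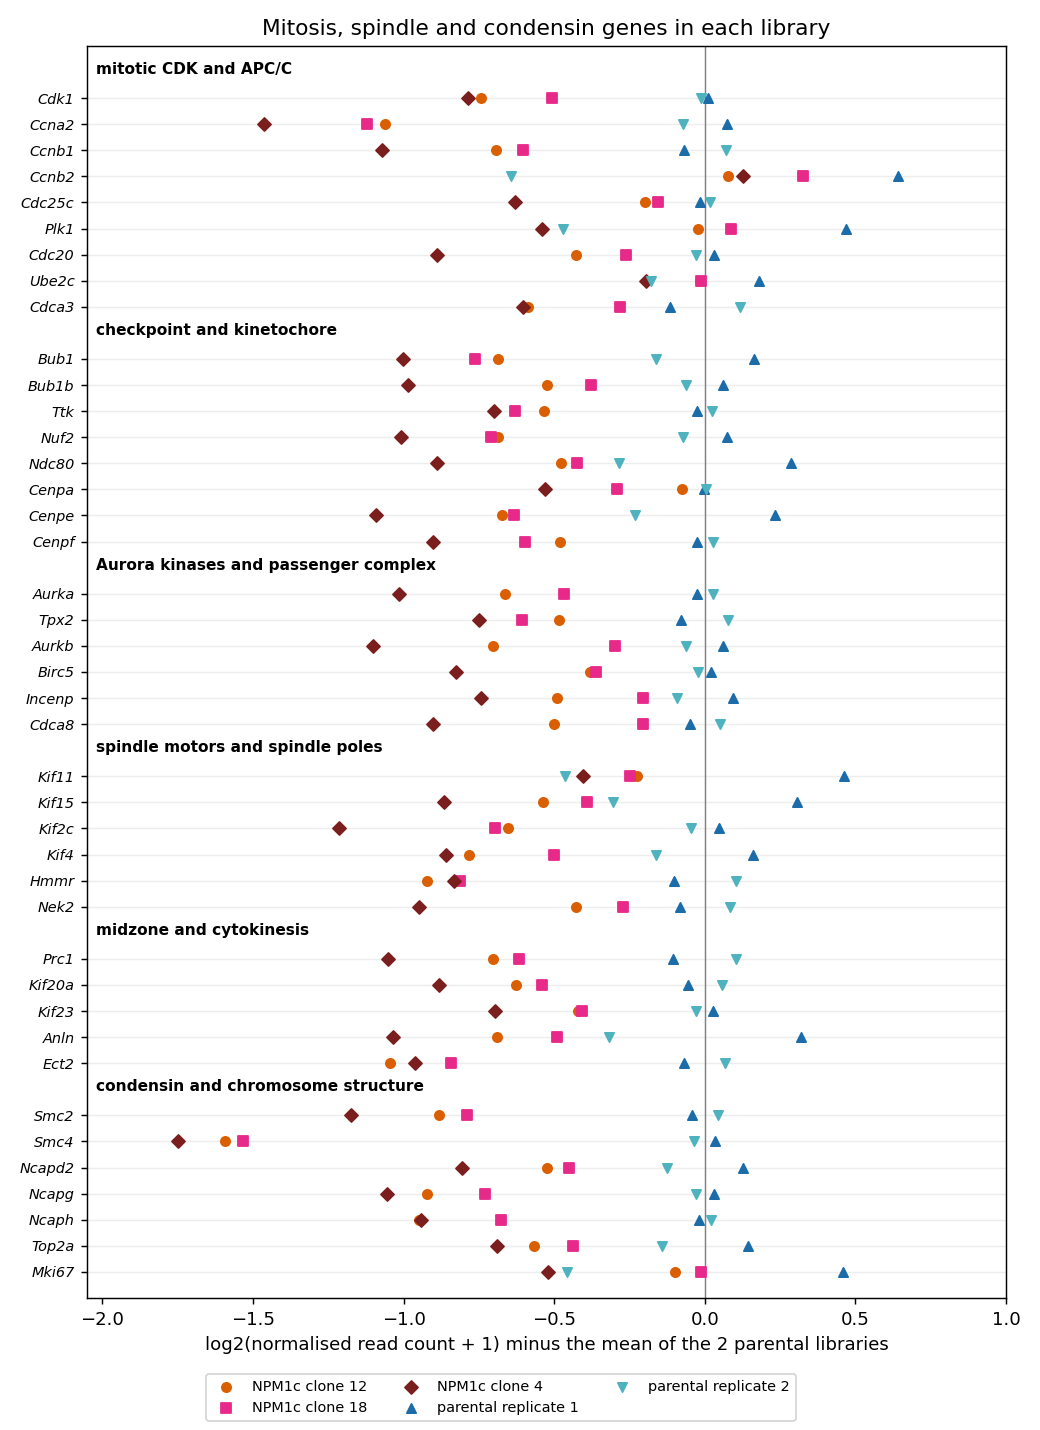
Each point is the value of a member in a library, as log2(normalised read count + 1) minus the mean of both parental libraries, with the members in rows grouped by role. The clones lie to the left of both parental libraries in 36 of the 41 rows, furthest for Smc4, and clone 4 is the leftmost clone in 37.

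Among the genes of the mitotic CDK and the APC/C, 4 of 9 fell and 5 did not pass, with a median log2 fold change of -0.49. For this and the other role groups, the share to set beside such counts is the 8.49% of all genes tested that fell. Ccna2, the cyclin that acts in S phase and at mitotic entry, was at 1875, 1799 and 1422 in clones 12, 18 and 4, against 4125 and 3723 in the parental libraries. All clones were thus well below both parental libraries, by 2.32-fold (log2 -1.22, SE 0.136, adjusted p = 0.00156, limma). Only 3.52% of all genes tested had a lower log2 fold change. Cdk1, the kinase itself, was at 2078, 2446 and 2015 in the clones, against 3505 and 3448 in the parental pair, 1.6-fold lower (log2 -0.68, SE 0.109, adjusted p = 0.00687, limma). Ccnb1, the main mitotic cyclin, was at 2895.5, 3077 and 2228, against 4458 and 4910.0 (log2 -0.79, SE 0.145, adjusted p = 0.0124, limma). Mouse Ccnb1 has processed pseudogenes that can share its reads.

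Cdca3, which promotes the destruction of the CDK1 inhibitor WEE1, fell by 0.49 on the log2 scale (SE 0.134, adjusted p = 0.0458, limma), a call that also ended with library totals as scaling (adjusted p = 0.0515). Cdc20, the APC/C activator of early mitosis, was at 1389, 1560 and 1009 in the clones, against 1908 and 1831 in the parental pair. The groups did not overlap, but the clones differed among themselves and the test was not passed (log2 fold change -0.53, SE 0.180, adjusted p = 0.0948, limma). Cdc25c, a phosphatase that activates CDK1, was the member with the fewest reads, at 86.17, 88.77 and 63.6 against 97.88 and 100.3 (adjusted p = 0.347, limma). Ube2c, the ubiquitin-conjugating enzyme that works with the APC/C, was at 839.6, 841.7 and 740.6 against 961.7 and 749.0, so that the second parental library lay among the clones (adjusted p = 0.760, limma). Ccnb2 and Plk1, the other members of this group, are those in which the parental libraries disagreed most.

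Within the checkpoint and kinetochore group, 5 of 8 members fell and 3 did not pass, and in all 8 the clones lay below both parental libraries. Bub1, a checkpoint kinase that also marks the inner centromere, was at 561.4, 532.6 and 451.3 in the clones, against 1012 and 807.6 in the parental libraries (log2 fold change -0.82, SE 0.158, adjusted p = 0.0138, limma). Nuf2, a subunit of the NDC80 complex that binds microtubules, was at 829.7, 817.9 and 664.7 against 1408 and 1271, 1.74-fold lower (log2 -0.80, SE 0.137, adjusted p = 0.00900, limma). Its partner Ndc80 was at 158.8, 164.9 and 119.0 against 270.3 and 181.4, and did not pass (log2 fold change -0.60, SE 0.236, adjusted p = 0.133, limma). The spread of its parental libraries was 62.9 (SD, n = 2), and the log2 fold change was -0.88 against the first of them alone and -0.31 against the second.

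Ttk, the kinase that starts checkpoint signalling, fell by 0.62 on the log2 scale, and Cenpf, a large outer kinetochore protein, by 0.66 (adjusted p = 0.0225 and 0.0183, limma). Cenpe, the motor that moves chromosomes towards the spindle equator, was at 475.2, 488.2 and 354.9 in the clones, against 890.3 and 644.7 in the parental pair (log2 -0.80, SE 0.202, adjusted p = 0.0346, limma). Bub1b, which encodes the checkpoint protein BUBR1, missed the threshold with a log2 fold change of -0.63 (adjusted p = 0.0569, limma) and passed with DESeq2 (adjusted p = 0.0155). Cenpa, the histone H3 variant of centromeres, was at 2343, 2016 and 1711 against 2464 and 2476. It gave the smallest difference in this group (log2 fold change -0.30, SE 0.136, adjusted p = 0.181, limma).

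Of the Aurora kinase and passenger genes, 2 of 6 fell and 4 did not pass. The 2 that fell belong together: Aurka, the spindle pole kinase, was at 1027, 1176 and 804.2 in the clones against 1599 and 1656 in the parental libraries, and Tpx2, which activates it on the spindle, was at 2577, 2368 and 2144 against 3418 and 3809. Their log2 fold changes were -0.72 (SE 0.162) and -0.61 (SE 0.109), with adjusted p = 0.0234 and 0.0102 by limma. The 4 that did not pass were the subunits of the chromosomal passenger complex, which corrects faulty kinetochore attachments and later moves to the midzone. Aurkb, its kinase, was at 1365, 1809 and 1036 against 2321 and 2131 (log2 fold change -0.70, SE 0.222, adjusted p = 0.0814, limma). Birc5 (survivin), Incenp and Cdca8 (borealin) had log2 fold changes of -0.52, -0.48 and -0.54 (adjusted p = 0.0618, 0.0871 and 0.112, limma). In these 4 genes too every clone was below both parental libraries. Without clone 18, Aurkb, Incenp and Cdca8 passed (adjusted p = 0.0175, 0.0337 and 0.0338, limma), and DESeq2 called Aurkb and Birc5 (adjusted p = 0.0217 and 0.0246).

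Spindle motor and spindle pole genes fell in 3 of 6 cases. Hmmr, a microtubule-binding protein of the spindle poles, was at 1426, 1541 and 1520.2 in the clones, against 2517 and 2907 in the parental libraries. The clones were close to each other and 1.81-fold below the parental libraries (log2 -0.86, SE 0.104, adjusted p = 0.00221, limma). Kif2c, which depolymerizes microtubules at centromeres, was at 1016, 984.4 and 687.2 against 1649 and 1547 (log2 -0.85, SE 0.179, adjusted p = 0.0186, limma). Kif4, a chromosome-bound kinesin, was at 291.8, 355.1 and 277.0 against 562.4 and 449.4 (log2 -0.71, SE 0.176, adjusted p = 0.0324, limma). Nek2, which separates the centrosomes, did not pass (log2 fold change -0.55, SE 0.206, adjusted p = 0.118, limma).

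The midzone and cytokinesis group fell in 4 of 5 members, with a median log2 fold change of -0.74. Ect2, the exchange factor that activates RhoA for the contractile ring, was at 2307, 2657 and 2445 in the clones, against 4543 and 4996 in the parental libraries. It was 1.93-fold lower (log2 -0.95, SE 0.0986, adjusted p = 0.00118, limma). Prc1, which bundles the antiparallel microtubules of the midzone, was at 3607, 3830 and 2831 against 5455 and 6310.1 (log2 -0.79, SE 0.143, adjusted p = 0.0117, limma). Its motor partners fell as well: Kif20a, which carries the passenger complex to the midzone, had a log2 fold change of -0.68, and Kif23, the kinesin of centralspindlin, one of -0.51 (adjusted p = 0.0105 and 0.0387, limma).

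Condensin and chromosome structure genes showed the lowest median of the 6 role groups, with a log2 fold change of -0.86, and 6 of 7 fell. Smc4, an ATPase arm shared by condensin I and II, was at 3653, 3811 and 3280.3 in clones 12, 18 and 4, against 11299 and 10771 in the parental libraries. The clones lay close together, far below both parental libraries, and 3.09-fold lower in the fit (log2 -1.63, SE 0.0914, adjusted p = 0.000112, limma). Only 2.41% of all genes tested had a lower log2 fold change. Smc2, the ATPase arm that pairs with it, was at 2728, 2907 and 2224 against 4874 and 5182, 1.93-fold lower (log2 -0.95, SE 0.125, adjusted p = 0.00306, limma). The ratio of Smc4 to Smc2 normalised read counts was 1.34, 1.31 and 1.48 in the clones, against 2.32 and 2.08 in the parental libraries. These groups did not overlap. The exact permutation test, 2-sided with the tail doubled, gave p = 0.2, and with 3 libraries against 2 it could not reach 0.05.

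The non-SMC subunits of condensin I fell as well. Ncapg was at 650.0, 743.4 and 592.9 in the clones, against 1258.5 and 1209 in the parental pair (log2 -0.90, SE 0.132, adjusted p = 0.00483, limma). Ncaph, the kleisin that bridges both ATPase heads, was at 866.7, 1048 and 871.9 against 1652 and 1699.8 (log2 -0.86, SE 0.122, adjusted p = 0.00434, limma). Ncapd2 fell less far, by 0.59 on the log2 scale (SE 0.131, adjusted p = 0.0218, limma). Top2a, the topoisomerase that untangles sister chromatids, was at 3890.2, 4251 and 3572 against 6358 and 5219 (log2 -0.56, SE 0.117, adjusted p = 0.0170, limma). With Smc4 left out of the sum, the 6 other genes of this group were at 64.8%, 70.1% and 55.3% of the parental mean in clones 12, 18 and 4, against 53.9%, 57.9% and 46.5% with it.

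**Figure D2:**
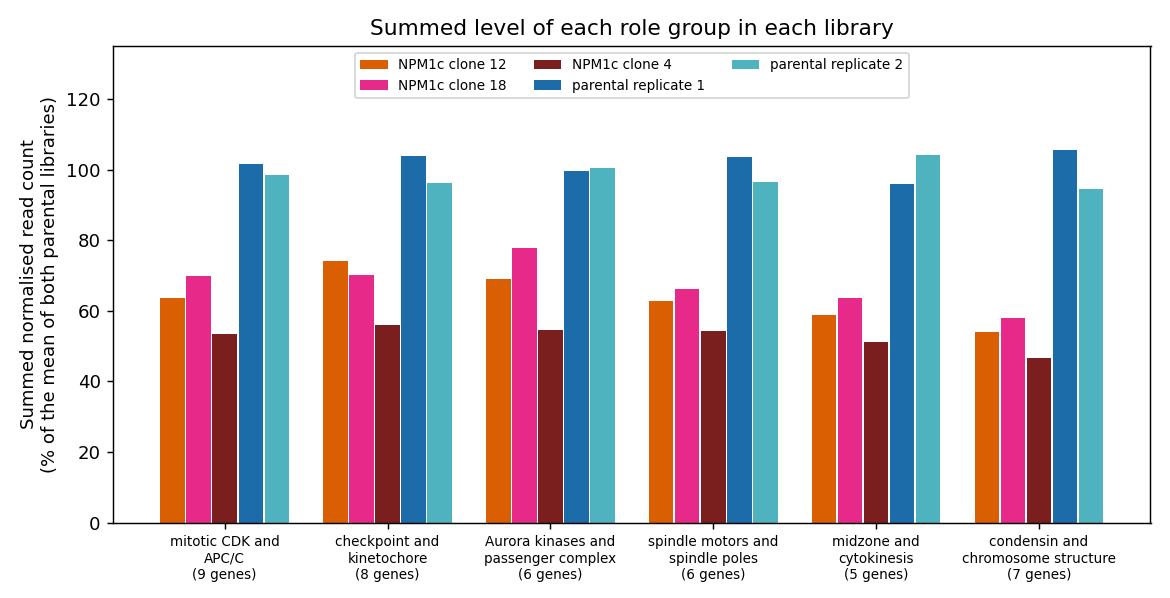
Bars give the summed normalised read count of each role group in each library, as a percentage of the mean of both parental libraries. Every clone is below both parental libraries in all 6 groups, from 46.5% in clone 4 for condensin and chromosome structure to 77.7% in clone 18 for the Aurora and passenger genes.

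The clones were not equal. Clone 4 was the lowest of the clones in 37 of the 41 members (90.2%), where it was the lowest in 37.2% of all genes tested. Clone 18 was the highest in 32 (78.0%, beside 33.5% of all genes tested) and the lowest in none (beside 33.7%). The median log2 difference of the members from the parental mean was -0.57, -0.47 and -0.89 in clones 12, 18 and 4. The highest clone exceeded the lowest by a median of 1.32-fold over the members, from 1.08-fold in Hmmr to 1.75-fold in Aurkb, beside 1.24-fold for all genes tested. Clone 4 was also the library with the fewest reads, and the lowest in Hoxb8, the immortalizing gene, with 4101 against 5745 and 6629 in clones 12 and 18 (6732 and 6080.2 in the parental libraries). The part of either in the order of the clones was not tested. With clone 4 left out, 23 members fell and the median log2 fold change was -0.54.

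The parental libraries agreed on most members and disagreed on some. Replicate 2 was below replicate 1 in 25 of the 41, and in 6 by more than 1.5-fold, which is 14.6% of the members. In none was it higher by that much. Over all genes tested, 7.61% were lower and 4.71% higher in replicate 2 by more than 1.5-fold. Past 2-fold, Ccnb2 alone remained among the members, where 2.83% of all genes tested were lower and 1.85% higher in replicate 2. The 6 were Ccnb2 (ratio of replicate 2 to replicate 1, 0.41), Plk1 (0.521), Kif11 (0.526), Mki67 (0.53), Anln (0.643) and Kif15 (0.656), and the next in order were Ndc80 (0.672), Cenpe (0.724) and Ube2c (0.779). None of the 6 passed the test, in which a gap between the parental libraries is part of the error.

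Ccnb2, a B-type cyclin, was at 396.4, 470.8 and 410.3 in the clones, against 587.3 and 240.4 in parental replicates 1 and 2. All clones thus lay between the parental libraries, below the first and above the second. Against replicate 1 alone its log2 fold change was -0.47, and against replicate 2 alone it was 0.82 (adjusted p = 0.16 and 0.0295, limma), and with both it was 0.18 (SE 0.360, adjusted p = 0.775, limma). Plk1, the kinase that drives centrosome maturation and mitotic entry, was at 446.9, 481.9 and 311.8 against 629.2 and 327.6. Its log2 fold change was -0.63 against replicate 1 alone and 0.31 against replicate 2 alone. Kif11, the motor that pushes the spindle poles apart, was at 709.1, 697.5 and 625.7 against 1144 and 601.2. Every clone was below the first parental library and above the second, and the log2 fold change was -0.76 against the first (adjusted p = 0.0315, limma) and 0.17 against the second. Mki67, which coats mitotic chromosomes and is used as a proliferation marker, was at 1907, 2024 and 1422 against 2804 and 1485, with log2 fold changes of -0.67 and 0.25.

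For the other pair the clones stayed below both parental libraries. Anln, a scaffold of the contractile ring, was at 331.2, 380.4 and 260.5 in the clones, against 666.5 and 428.4 in the parental libraries (log2 fold change -0.74, SE 0.238, adjusted p = 0.0781, limma). Kif15, a motor that works beside KIF11, was at 386.6, 428.0 and 307.7 against 694.5 and 454.9 (log2 fold change -0.60, SE 0.223, adjusted p = 0.116, limma). Against parental replicate 1 alone, Anln passed (adjusted p = 0.0419) and Kif15 did not (adjusted p = 0.0529, limma).

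Read against each parental library alone, all 41 members were below replicate 1 in every clone, which held for 34.9% of all genes tested. Against replicate 2 this was so in 36 of 41, beside 34.6% of all genes tested. Where the parental libraries agreed within 1.5-fold, the median log2 fold change was -0.69 against replicate 1 alone and -0.65 against replicate 2 alone. For the 6 members that disagreed it was -0.71 and 0.21. These 6 were picked by the gap between the parental libraries, so a gap between their medians follows from that choice. With a single parental library as control, limma takes the spread of the lone library to be like that of the clones. Parental replicate 2 was the library with the most reads, and the part of depth in these ratios was not tested.

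**Figure D3:**
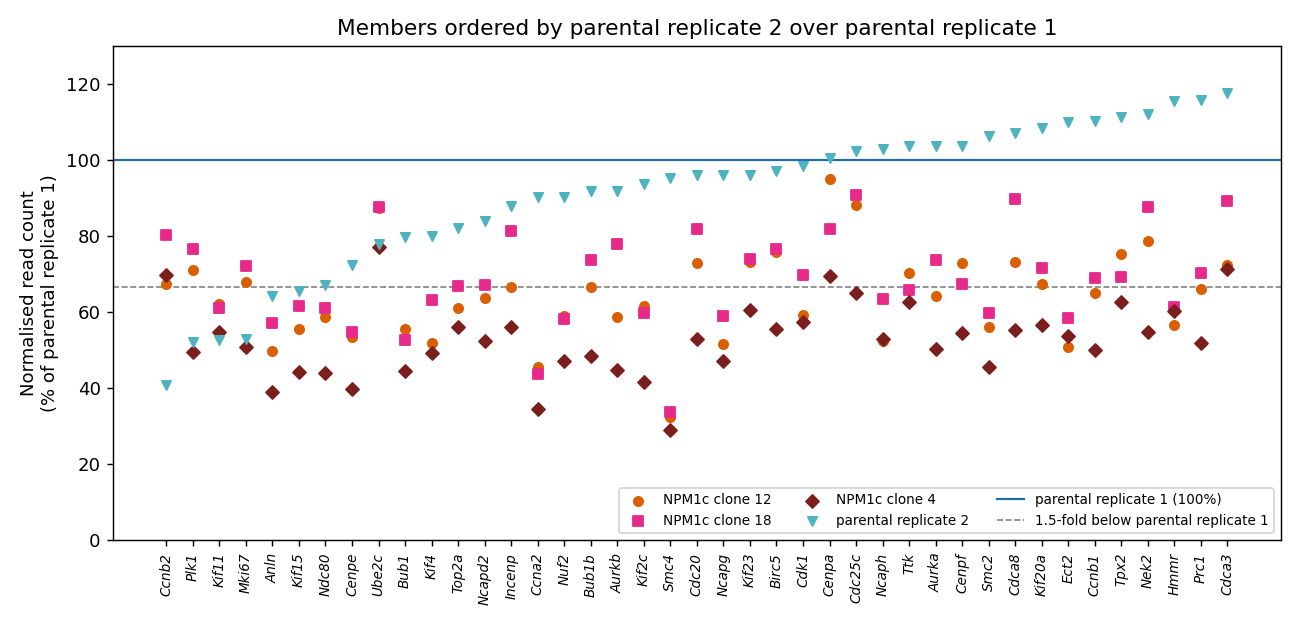
Values of the 3 clones and of parental replicate 2 are drawn as a percentage of parental replicate 1 for each member, ordered by the ratio of the parental libraries. At the left, replicate 2 of Ccnb2 and Kif11 lies below every clone, and from Ndc80 rightwards it stays above the dashed line at 1.5-fold.

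**Figure D4:**
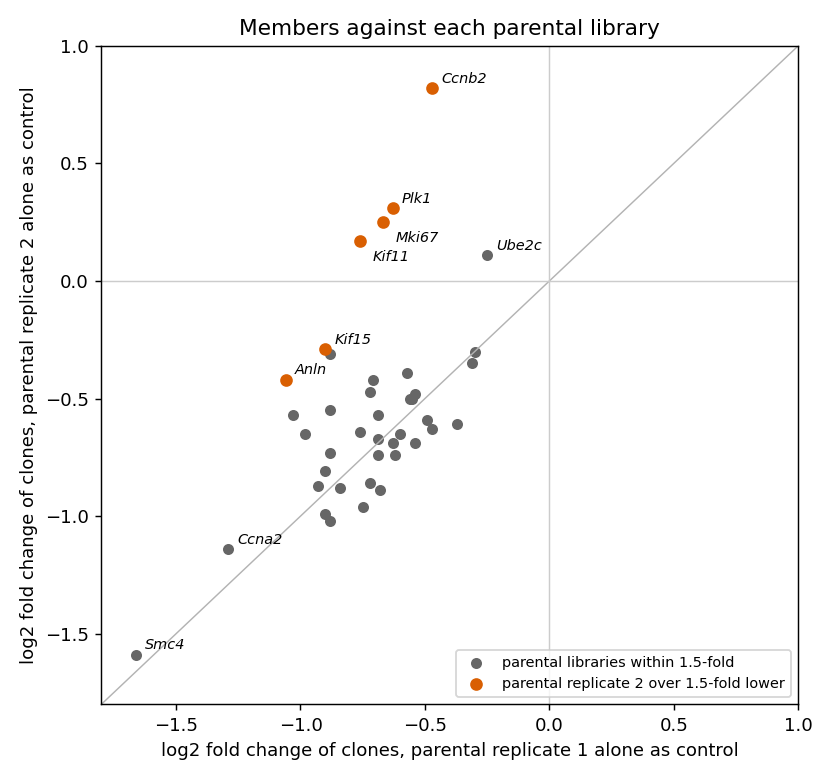
Each point is a member, with its log2 fold change in the clones against parental replicate 1 alone on the horizontal axis and against replicate 2 alone on the vertical axis. Ccnb2, Plk1, Mki67, Kif11 and Ube2c are below 0 on the first and above 0 on the second, while Smc4 is at -1.66 and -1.59. The clones are the same on both axes.

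Other genes of mitosis were taken from 6 further lists, of which 110 of 115 symbols were found and tested. In these, 36 fell, none rose and 74 did not pass, with a median log2 fold change of -0.42, where 8.49% of all genes tested fell and 7.51% rose. An unadjusted p under 0.05 in the upward direction was seen in Arpp19 and Anapc13, beside 1985 of the 13132 genes tested. edgeR and DESeq2 called 0 higher, with 37 and 41 lower (8.96% and 10.5% of all genes lower). Without clone 12, parental replicate 1 or parental replicate 2, 18, 16 and 12 of the 110 fell, where 4.2%, 4.26% and 3.02% of all genes fell. Without parental replicate 1, 7 of the 110 rose, where 9.26% of all genes did. Of the 15 changed genes named from these lists, Plk4, Ckap5, Racgap1, Spc25, Pmf1 and Cks1b passed with any single library left out, and the others did not. Plk4, the kinase that starts centriole duplication, was at 1304, 1557 and 1214.5 in the clones, against 3255 and 3740.2 in the parental libraries (log2 -1.37, SE 0.131, adjusted p = 0.000928, limma). Ckap5, a microtubule polymerase, fell by 0.64 and Racgap1, the partner of KIF23 in centralspindlin, by 0.81 on the log2 scale (adjusted p = 0.00241 and 0.00252, limma).

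Among the other kinetochore and checkpoint genes, 12 of 30 fell, where 8.49% of all genes tested fell, with a median log2 fold change of -0.68. Spc25, another subunit of the NDC80 complex, was at 730.0, 797.3 and 650.3 against 1456 and 1503 (log2 -1.03, SE 0.124, adjusted p = 0.00215, limma). Pmf1, of the MIS12 complex, and Zwilch, of the complex that recruits dynein, were 2.01-fold and 1.76-fold lower (adjusted p = 0.00403 and 0.00992, limma), and Zwilch lost the call without parental replicate 2 (adjusted p = 0.0588). All 3 non-SMC subunits that are specific to condensin II fell: Ncapd3 by 0.60, Ncapg2 by 0.84 and Ncaph2 by 0.48 on the log2 scale (adjusted p = 0.0164, 0.0373 and 0.0483, limma). Without parental replicate 1 none of the 3 passed (adjusted p = 0.071, 0.144 and 0.134), and without clone 12 only Ncapd3 did (adjusted p = 0.0457, limma). In Ncapg2 the parental libraries differed by more than 1.5-fold (829.7 and 540.4).

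Other groups moved less. Of 16 cohesin and separase genes 5 fell, where 8.49% of all genes tested fell. They were led by Esco2, which acetylates cohesin in S phase (log2 -0.89, adjusted p = 0.0132), and by Stag1 and Pds5b (log2 -0.44 and -0.47, adjusted p = 0.0220 and 0.0329, limma). Stag1 passed again only without clone 4, Pds5b lost the call without clone 12, clone 18 or parental replicate 2, and Esco2 lost it without either parental library. Beside the same 8.49%, 3 of 16 mitotic entry regulators fell. They were Cks1b, a CDK-binding subunit, Ccnf and Mastl, the kinase that restrains the phosphatase PP2A (log2 -0.82, -0.70 and -0.81, adjusted p = 0.00567, 0.0202 and 0.0471, limma). Mastl lost the call with each of the 5 libraries left out (adjusted p = 0.0566 to 0.158), and Ccnf without clone 12 or either parental library. None of the 15 APC/C subunits and inhibitors passed in either direction by limma or edgeR, with a median log2 fold change of -0.08. An unadjusted p under 0.05 was seen in 5 of the 15, with Anapc13 upward, a share near that of all genes tested (4087 of 13132). DESeq2 called Anapc1 lower (adjusted p = 0.0378).

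The parental libraries disagreed in these lists too. In 12 of the 110 genes (10.9%) replicate 2 was more than 1.5-fold below replicate 1, and in none was it higher by that much. Over all genes tested, 7.61% were lower and 4.71% higher in replicate 2 by more than 1.5-fold. Ube2s, which extends ubiquitin chains for the APC/C, was at 583.5, 702.2 and 656.5 in the clones, against 728.7 and 198.0 in parental replicates 1 and 2. Anapc5, a scaffold subunit of the APC/C, was at 1392, 1595 and 1502 against 1756 and 533.1. Bub3, the partner of BUB1 and BUBR1, was at 622.9, 664.2 and 650.3 against 666.5 and 270.2. In all 3 the clones lay just below replicate 1 and far above replicate 2. With Wee1, Cks2, Anapc13 and Rad21, they are the 7 genes that rose when replicate 1 was left out, a share below that of all genes.

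**Figure D5:**
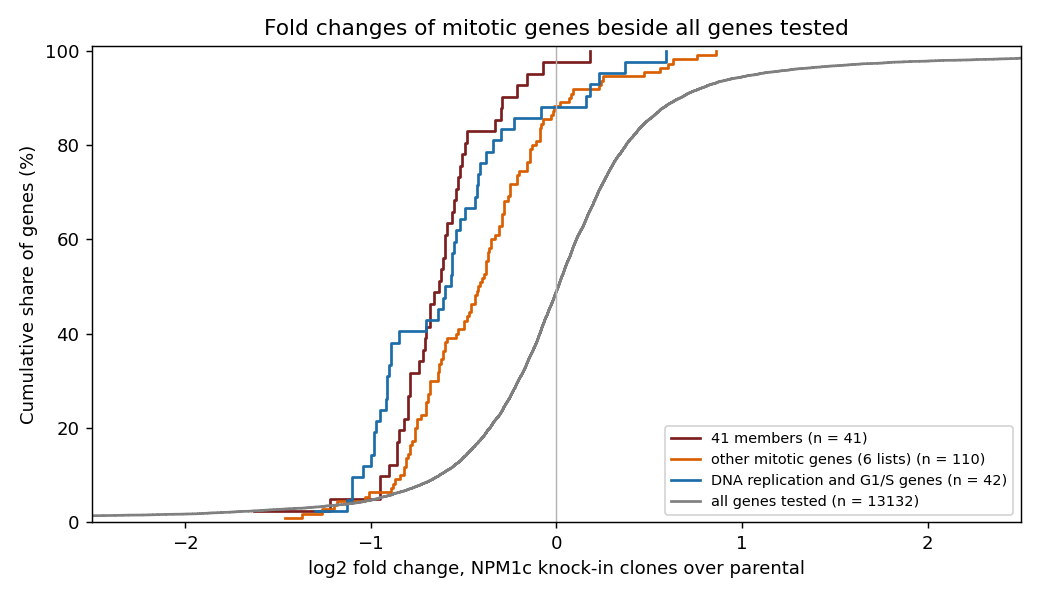
Cumulative share of genes by log2 fold change of the knock-in clones over the parental libraries, for the 41 members, 110 other mitotic genes, 42 DNA replication and G1/S genes and all 13132 genes tested. The medians are -0.63, -0.42, -0.59 and 0.01, and the horizontal axis is limited to the central range.

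Genes of DNA replication and the G1/S transition, which act before mitosis, gave a median log2 fold change of -0.59. By limma 15 of 42 were lower, none higher and 27 not passing, where 8.49% of all genes fell. An unadjusted p under 0.05 was seen in 31 of the 42, none of them upward. Over all 13132 genes tested it was seen in 4087, of which 1985 were upward. edgeR called 16 lower and DESeq2 24, where 8.96% and 10.5% of all genes fell, and neither called any higher. Without clone 12, parental replicate 1 or parental replicate 2, 7 fell each time (4.2%, 4.26% and 3.02% of all genes fell). Without parental replicate 1, 4 rose, Mcm2, Mcm3, Rfc2 and Rrm1, which is close to the 9.26% of all genes that rose in that fit. Orc1, the largest subunit of the origin recognition complex, Tk1, which makes thymidine monophosphate, and Pola1, of DNA polymerase alpha, fell by 1.30, 1.13 and 1.10 on the log2 scale (adjusted p = 0.00791, 0.00624 and 0.00497, limma). Clone 4 was the lowest clone in 37 of the 42, where it was the lowest in 37.2% of all genes tested. Parental replicate 2 was more than 1.5-fold lower in 7 of them and higher by that much in none. Over all genes tested, 7.61% were lower and 4.71% higher by that much. The difference between this list and the 41 members was not tested.

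Markers of other blood cells differed between the groups as well. The 10 neutrophil markers summed to 17575, 25849 and 11404 in clones 12, 18 and 4, against 51892 and 46830 in parental replicates 1 and 2. Most of each sum was Mpo, at 13844.5, 20009 and 7872 in the clones against 42873 and 38610, which did not pass (adjusted p = 0.0629, limma). Of the 5 abundant enough to test, 3 fell and none rose, where 8.49% of all genes tested fell and 7.51% rose. Camp was at 0 in every library. The 10 mast cell and basophil markers summed to 5441, 8010 and 7318 in the clones, against 3490 and 1260.0 in the parental pair. Most of each sum was Cpa3 and Hdc, which did not pass (adjusted p = 0.225 and 0.139, limma). Cpa3 was at 2748, 3139 and 4388 in clones 12, 18 and 4, against 2450 and 386.2 in parental replicates 1 and 2. The parental libraries thus disagreed on it. Of the 6 markers tested, 4 rose (Mcpt8, Ms4a2, Il1rl1 and Tpsb2) and none fell. Fcer1a and Cma1, untested, were at 0 in both parental libraries and in clone 4, and at most 11.1 and 19.02 in the other clones. Tpsab1 and Mcpt4, also untested, reached at most 6.154 and 1.585 in any library. Megakaryocyte markers summed to 2031 to 3124 in the clones, against 431.9 and 380.1, and 1 of 4 tested, Itga2b, rose. B cell markers summed to 2338 to 3083 in the clones, against 5269 and 5039, with 3 of 6 tested entries lower, while Pax5 stayed under 3 in every library. Ebf1 stands under separate Ensembl entries, of which the abundant one fell. The sparse one, at a mean of 12.27 against 15.21, did not pass (adjusted p = 0.654, limma). Endothelial and stromal markers summed to 7517 to 9185 in the clones, against 3342 and 3543, through Pecam1, which leukocytes also carry, while Cdh5 and Col3a1 were at 0 in every library. Monocyte markers overlapped between the groups in their sum, and 1 of 6 tested, Emr1, rose. The part of these cell states in the levels of the mitotic genes was not tested.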

How the data were processed

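Per the labels' protocols, RNeasy micro kits gave the RNA and NEBNext Ultra II the mouse libraries. STAR 2.6.1, RSEM, DESeq2 and the builds hg19 and mm9 are named in the submitters' processing notes, without a role for each. For the aligner settings, the annotation and strand nothing was given in the sources used here. The authors deposited a signal value per Ensembl gene and library, which is a read count divided by a size factor: in each library 100% of the non-zero values were whole multiples of its smallest one (tolerance 0.01). Symbols are those of the files.

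Since the files hold normalised values, log2(value + 1) was fitted with limma 3.58.1 (R 4.3.3) with its trend and robust options, for genes with a mean of at least 10 over the 5 mouse libraries. This scale understates the change of low genes. Benjamini-Hochberg adjustment ran over all 13132 genes tested, and a gene counts as changed at an adjusted p under 0.05. Alternatives were edgeR 4.0.16 and DESeq2 1.42.0 on the recovered whole reads, other pseudocounts, filters and scalings, and leaving out each library. On simulated counts with 13132 genes, limma recovered 62.7%, 92.5% and 97% of genes changed 1.5-fold, 2-fold and 4-fold between clones and parental libraries. It made 8 false calls among the unchanged genes. The simulation gave every gene the same fixed spread, without clones that differ or a parental library that lies apart. It therefore does not give the power in these data. The members, lists, role groups and tests were chosen with earlier results of these data known. All members were named, and from each further list the up to 3 changed genes with the smallest p. Other genes named (cell type markers, the genes in which the parental libraries disagree) were chosen after their values were seen. Promoter motifs were planned and not analysed here, since no mouse promoter sequence was used. The 8 human libraries were not analysed here, and gene positions and lengths were not used, so levels of different genes are not compared.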

Additional observations from a re-analysis of the deposited data

How the results depend on the processing

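Another pseudocount (0.5 or 5), another minimum (1 or 50), TMM scaling and edgeR gave the same 24 members and library totals 23, where 6.82% to 9.29% of all genes fell under the limma settings among these. limma without trend and robust moderation, whose spread is estimated otherwise, called 11 members, 17 of the other mitotic genes, 6 of the replication genes and 1271 genes in all, against 24, 36, 15 and 2101. DESeq2 called 24 replication genes. With 2-fold in place of 1.5-fold, the parental libraries disagreed in 1 member, Ccnb2. Leaving out single libraries gave 981 (parental replicate 2) to 2117 changed genes, with 1015 without clone 12, 13 to 25 members lower and 0 to 1 higher, 12 to 34 other mitotic genes lower and 0 to 7 higher, 7 to 21 replication genes lower and 0 to 4 higher (Mcm2, Mcm3, Rfc2 and Rrm1, without parental replicate 1). The median of the members stayed between -0.70 and -0.54, and 36 to 41 members had groups that did not overlap. With all libraries, the clones lay lower without overlap in 25.8% of all genes tested and higher in 24.5%. The 41 were reached without parental replicate 2, where 34.9% of all genes tested had replicate 1 above every clone. The members whose sign turned when a library was left out were those in which the parental libraries overlapped the clones: Ccnb2 (-0.47 to 0.82), Plk1 (-0.63 to 0.31, and 0.03 without clone 4), Ube2c (-0.25 to 0.11), Kif11 (-0.76 to 0.17) and Mki67 (-0.67 to 0.25), with the upper values without parental replicate 1. Without a parental library, a sign can turn only where such an overlap exists. Anln and Kif15, whose parental libraries also lay more than 1.5-fold apart, kept their sign. The cause of the changes on leaving out a library was not tested. No paired analysis was possible because the mouse groups share no replicate number. Depth limits Cdc25c most, with 31 reads in clone 4.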
